A study of Mus musculus with 4 samples.

Results

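The genes described here are 36 genes of NRF2 signalling, glutathione metabolism and the defence against ferroptosis, out of 55335 genes listed. They were chosen by symbol, and the rule itself uses no measured value, but earlier results of these data were known at the choice. All 36 were found, and 35 were among the 18661 genes with enough reads to be tested, Osgin1 being the exception. RNA-seq libraries came from AB2.2, a line of mouse embryonic stem cells (ESCs) cultured on mouse embryonic fibroblast (MEF) feeders, so RNA of feeder cells may be in every library. There were 2 control libraries and 2 libraries from cells given 50 mM lactate for 24 h. The medium of both groups held 15% serum, leukemia inhibitory factor at 1000 U/ml, the GSK3 inhibitor CHIR99021 at 3 μM and the MEK inhibitor PD0325901 at 1 μM. The age, strain and passage of the cells are not given in the sources used here. The labels do not say whether replicates came from separate cultures, so p-values measure only the spread between these libraries, which may be technical.

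NRF2, encoded by Nfe2l2, is a transcription factor that KEAP1 holds in the cytoplasm and marks for degradation until oxidants or electrophiles modify KEAP1. Freed NRF2 pairs with small MAF proteins and binds antioxidant response elements near genes for glutathione synthesis, quinone reduction, thioredoxin recycling and iron storage. Ferroptosis is a form of cell death driven by iron-dependent peroxidation of membrane lipids, which glutathione and the selenoenzyme GPX4 hold back.

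Reads on genes numbered between 18067562 and 19077885 per library. Mitochondrial transcripts took 5.48% of them in control replicate 1 and 5.72% in lactate replicate 1, but 2.43% in control replicate 2 and 2.82% in lactate replicate 2, so the replicates with the same number resembled each other in this respect. The summed level of the 10 ESC markers was 4784 and 5063 CPM (reads of a gene scaled to library size) in the controls against 5181 and 5904 CPM with lactate. Both lactate libraries thus lay above both controls, while single markers moved in either direction, such as Sox2 (log2 fold change 0.56) and Utf1 (-0.54). The part of this difference in the results was not tested. The summed level of the 12 feeder fibroblast markers was between 492 and 716 CPM. The feeder markers came to 492 and 716 CPM in the controls against 499 and 571 CPM with lactate, with overlapping groups. Of the 11 feeder markers tested, 6 had lower and 5 had higher fitted levels with lactate, none of the 12 was at 0 in a library, and their part in the results was not tested. In bulk RNA, fewer cells of a type and less RNA per cell cannot be told apart.

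Most of the defence genes had lower transcript levels with lactate, by small amounts, and none passed the test of edgeR at an adjusted p-value under 0.05, while other fits passed some of them. The list also holds genes whose products restrain NRF2 (Keap1), import iron (Tfrc) or load polyunsaturated fatty acids into membranes (Acsl4). Keap1 (log2 fold change -0.72) and Tfrc (-0.55) were among the lower genes, so a lower level does not mean a weaker defence in each gene. The fitted level was lower in 26 of the 35 tested genes (74.3%), against 49.0% of all genes tested, and higher in 9 (51.0% of all genes). The median log2 fold change, lactate over control, was -0.33 over the 35 genes and 0.01 over all genes tested. In 19 of them (54.3%) both lactate libraries lay below both control libraries, against 25.9% of all genes, and in none did both lie above (27.0% of all genes).

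By the quasi-likelihood test of edgeR, adjusted by Benjamini and Hochberg, 0 of the 35 genes were called higher and 0 lower, a call requiring an adjusted p-value under 0.05 with more than a 2-fold change, which 0.552% and 0.348% of all genes were. The adjusted p-value alone gave 0 as well (0.568% of all genes higher and 0.423% lower), and the smallest among the 35 genes was 0.0587, for Gsr. At an unadjusted p-value under 0.05, 12 genes were lower (34.3%, against 11.4% of all genes) and 0 were higher (11.7% of all genes). DESeq2 gave an adjusted p-value under 0.05 to 3 of them, all lower, which were Gsr (0.00932), Nqo1 (0.0267) and Keap1 (0.0332), against 3.13% of all genes lower and 1.86% higher, and it called 0 at more than 2-fold (0.990% of all genes lower and 1.12% higher). Without the filter on low counts, edgeR gave an adjusted p-value under 0.05 to 7 genes, all lower, against 2.89% of all genes. Without control replicate 1, 7 genes in place of 12 were lower at an unadjusted p-value under 0.05 (8.37% of all genes). Without lactate replicate 2, 5 genes were lower at an adjusted p-value under 0.05 (3.53% of all genes), and without lactate replicate 1, 2 were (2.38% of all genes). For each gene described, the CPM of replicate 1 comes before that of replicate 2 in each group. With 2 libraries against 2, a permutation test cannot give a two-sided p below 0.333, so all p-values come from models fitted across all genes.

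**Figure D1:**
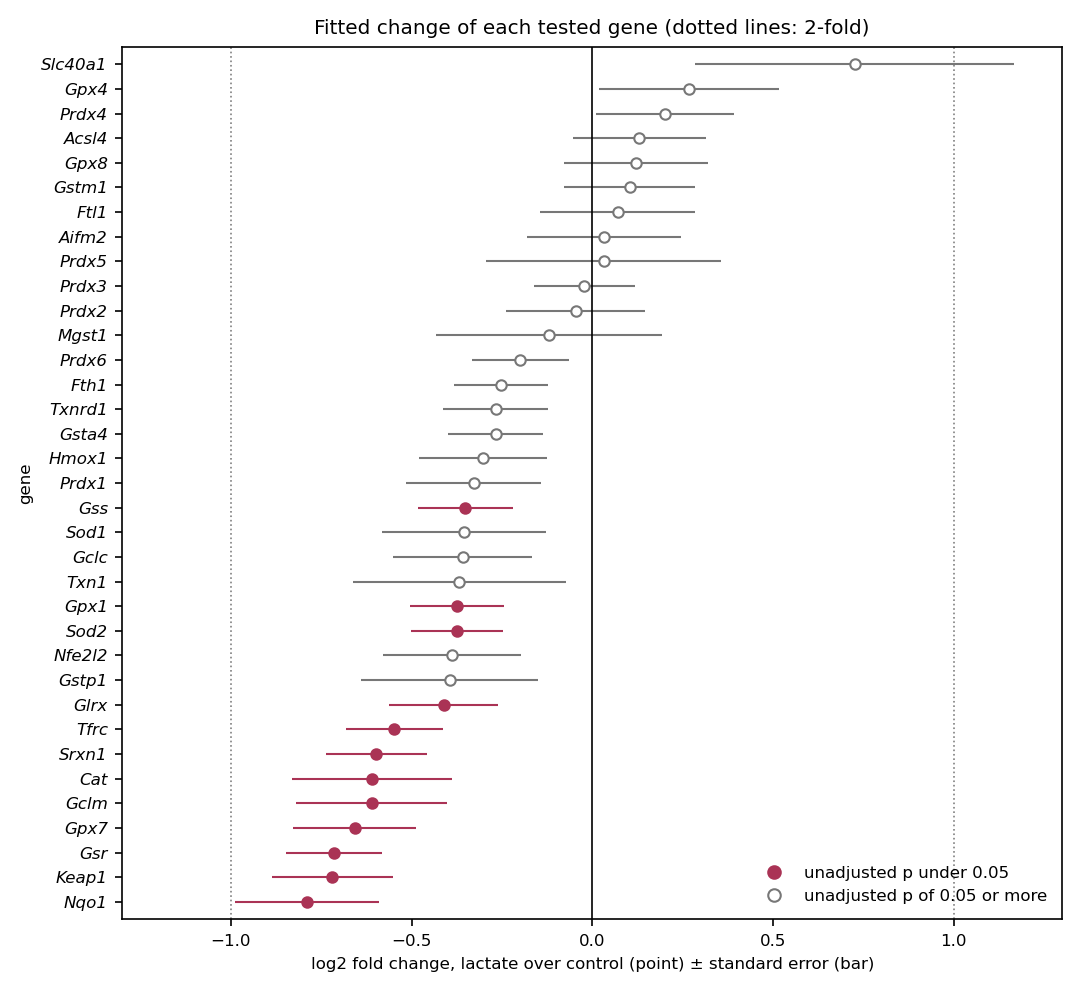
Fitted log2 fold change of the 35 tested genes, lactate over control, with bars of 1 standard error either side and filled points for an unadjusted p-value under 0.05. The 12 filled points all lie left of 0, from Nqo1 at -0.79 to Gss at -0.35, and no point passes the dotted 2-fold lines.

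**Figure D2:**
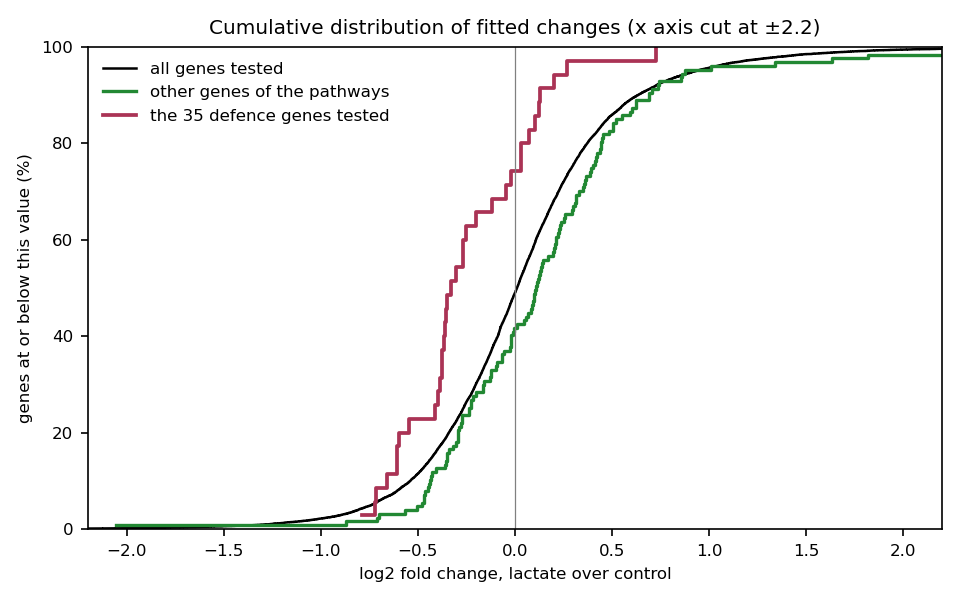
Share of genes (%) at or below each log2 fold change, for the 35 defence genes, the 127 other genes of the pathways and all 18661 genes tested. The curve of the defence genes lies to the left of that of all genes over most of its range, with medians of -0.33 and 0.01, and the curve of the other pathway genes has a median of 0.11.

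Both regulators had lower levels with lactate (49.0% of all genes had a lower fitted level). Nfe2l2, the gene of NRF2 itself (chromosome 2, 75675513 to 75704641, minus strand, GRCm38), was at 176 and 141 CPM in the controls against 138 and 105 CPM with lactate. The groups were separated by only a few CPM, between control replicate 2 and lactate replicate 1. Its log2 fold change was -0.39 (SE 0.19, adjusted p = 0.282), and ranged from -0.63 without lactate replicate 1 to -0.21 without lactate replicate 2.

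Keap1, which encodes the adaptor that targets NRF2 for degradation (chromosome 9, 21229730 to 21239361, minus strand), was at 38.9 and 47.0 CPM in the controls against 24.0 and 28.1 CPM with lactate. The higher lactate library was thus well below the lower control library. The log2 fold change was -0.72 (SE 0.17, adjusted p = 0.0819), a level 39.3% lower. Of its exon bases, 10.9% are shared with Gm16754 on the opposite strand, and whether counting used strand is not given in the sources used here.

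Glutathione is made in a pair of steps. Glutamate-cysteine ligase, with a catalytic subunit from Gclc and a modifier subunit from Gclm, joins glutamate and cysteine, and glutathione synthetase, from Gss, adds glycine. Glutathione reductase, from Gsr, and glutaredoxin, from Glrx, then keep the cell's thiols reduced. The fitted levels of all 5 genes were lower in the lactate group (49.0% of all genes), with a median log2 fold change of -0.41. At an unadjusted p-value under 0.05, 4 of them were lower (11.4% of all genes).

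Gsr (chromosome 8, 33652523 to 33698163, plus strand) gave the smallest p-value of the 35 genes. It was at 128 and 123 CPM in the controls against 71.8 and 81.0 CPM with lactate, with both lactate libraries below both controls. In TPM the replicates were further apart, at 65.4 and 86.5 in the controls against 36.65 and 51.9 with lactate, and RSEM assigned Gsr only 62.1% of its raw count in the controls. Its log2 fold change was -0.71 (SE 0.13, adjusted p = 0.0587), a level 39.0% lower, and leaving out each library in turn gave values from -0.81 to -0.66.

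Gclm (chromosome 3, 122245557 to 122270732, plus strand) was at 85.9 and 61.3 CPM in the controls against 54.0 and 42.5 CPM with lactate. Replicates of this gene were far apart, and control replicate 2 lay only slightly above lactate replicate 1. Its log2 fold change was -0.61 (SE 0.21, adjusted p = 0.159), and ranged from -0.84 without control replicate 2 to -0.36 without control replicate 1. Gclc (chromosome 9, 77754535 to 77794485, plus strand) was at 94.3 and 72.7 CPM in the controls against 73.4 and 56.8 CPM with lactate. Here the groups overlapped, since lactate replicate 1 was above control replicate 2, and the log2 fold change was -0.36 (SE 0.19, adjusted p = 0.321). It ranged from -0.58 without lactate replicate 1 to -0.18 without control replicate 1.

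The balance of the subunit transcripts, not of the proteins, can be read from TPM, which accounts for transcript length. RSEM assigned Gclm 69.2% and Gclc 78.2% of its raw count in the controls. The ratio of Gclm to Gclc in TPM was 2.23 and 1.91 in the controls against 1.41 and 1.45 with lactate. Both lactate libraries were below both control libraries, and the difference in the ratio was not tested.

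Gss (chromosome 2, 155563181 to 155592810, minus strand) was at 87.3 and 98.0 CPM in the controls against 72.9 and 72.4 CPM with lactate, with a log2 fold change of -0.35 (SE 0.13, adjusted p = 0.183). It shares 15.4% of its exon bases with genes on the opposite strand, among them Acss2. Glrx (chromosome 13, 75839868 to 75850154, plus strand) was at 22.8 and 22.1 CPM in the controls against 16.9 CPM in each lactate library. Replicates of Glrx were nearly identical within each group, and its log2 fold change was -0.41 (SE 0.15, adjusted p = 0.176).

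Promoter windows from RefSeq (GRCm38.p6, 250 bases before to 50 after a start) were found for 30 of the 36 genes, in 40 windows. Those not matched were Gclc, Gsr, Hmox1, Prdx6, Slc40a1 and Gsta4. The core letters of the antioxidant response element, TGACNNNGC, were searched on both strands. They were present in 7 of the 40 windows (17.5%), against 12.4% of all 32851 windows, a share near the background. The share covers this pattern only. Letters such as TGAGTCAGC, which the Srxn1 window holds before its start, do not match it and were neither counted nor marked. The 7 windows belong to Nfe2l2, Gclm, Txnrd1, Srxn1, Prdx1, Sod1 and Mgst1, of which Gclm and Srxn1 had an unadjusted p-value under 0.05. Windows of 3 of these genes are shown, 1 each for glutathione synthesis, sulfiredoxin and peroxiredoxin, so that the letters can be read in place. Each is written 5′ to 3′ along the strand of its gene with the match in capitals, and each match lies on the opposite strand, where it reads TGACGGTGC in Gclm (134 bases before the start), TGACCTAGC in Srxn1 (29 bases after the start) and TGACTCAGC in Prdx1 (133 bases before the start). The match in Prdx1 also holds TGACTCA, the letters bound by AP-1. A match describes letters only.
Gclm, chr3:122245307-122245606, plus strand: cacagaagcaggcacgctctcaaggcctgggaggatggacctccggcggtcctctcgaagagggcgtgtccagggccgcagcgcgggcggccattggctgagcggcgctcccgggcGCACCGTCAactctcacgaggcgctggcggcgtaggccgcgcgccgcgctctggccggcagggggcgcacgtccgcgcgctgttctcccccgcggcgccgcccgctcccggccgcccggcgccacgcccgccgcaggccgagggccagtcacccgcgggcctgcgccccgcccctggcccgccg
Srxn1, chr2:152105274-152105573, plus strand: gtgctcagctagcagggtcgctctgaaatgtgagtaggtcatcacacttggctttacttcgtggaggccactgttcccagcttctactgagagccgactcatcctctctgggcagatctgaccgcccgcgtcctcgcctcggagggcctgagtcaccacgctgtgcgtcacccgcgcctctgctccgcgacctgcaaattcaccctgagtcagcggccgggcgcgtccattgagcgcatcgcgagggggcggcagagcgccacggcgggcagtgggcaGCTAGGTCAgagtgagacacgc
Prdx1, chr4:116685349-116685648, plus strand: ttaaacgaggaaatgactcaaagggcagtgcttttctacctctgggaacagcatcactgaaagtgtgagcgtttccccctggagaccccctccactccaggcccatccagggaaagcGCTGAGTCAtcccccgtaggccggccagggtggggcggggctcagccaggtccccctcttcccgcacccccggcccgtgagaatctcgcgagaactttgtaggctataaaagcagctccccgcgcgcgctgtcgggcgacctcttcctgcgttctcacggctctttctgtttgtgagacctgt

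Nqo1, a classical NRF2 target, had the lowest log2 fold change of the 35 genes. It encodes a quinone reductase whose transcript is widely read as a measure of NRF2 activity (chromosome 8, 107388225 to 107403206, minus strand). Nqo1 was at 35.04 and 48.3 CPM in the controls against 22.3 and 26.0 CPM with lactate, without overlap. The log2 fold change was -0.79 (SE 0.20, adjusted p = 0.0951), a level 42.1% lower, and ranged from -1.02 to -0.54 when single libraries were left out.

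Hmox1, which encodes the inducible haem oxygenase that releases iron from haem (chromosome 8, 75093621 to 75100589, plus strand), was at 105 and 90.5 CPM in the controls against 90.2 and 68.1 CPM with lactate. The groups did not overlap, but control replicate 2 and lactate replicate 1 were almost equal. Its log2 fold change was -0.30 (SE 0.18, adjusted p = 0.361), and ranged from -0.55 without lactate replicate 1 to -0.12 without lactate replicate 2. Osgin1, an NRF2-responsive growth inhibitor gene, had 8 and 3 reads in the controls against 2 and 8 reads with lactate and was not tested.

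Thioredoxin reductase, from Txnrd1, recharges thioredoxin, from Txn1, which in turn reduces most of the peroxiredoxins that remove hydrogen peroxide. Sulfiredoxin, from Srxn1, rescues peroxiredoxins that have been overoxidised. Of these 9 genes, 7 were lower and 2 higher in the fit (49.0% and 51.0% of all genes), with a median log2 fold change of -0.20. Only Srxn1, a lower gene, had an unadjusted p-value under 0.05 (11.4% of all genes lower). In the 2 higher ones, Prdx4 and Prdx5, the groups overlapped.

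Srxn1 (chromosome 2, 152105516 to 152111376, plus strand) was at 52.4 and 55.8 CPM in the controls against 33.6 and 37.9 CPM with lactate. The replicates were close and the groups well apart, with a log2 fold change of -0.60 (SE 0.14, adjusted p = 0.0814). Txnrd1 (chromosome 10, 82833951 to 82897712, plus strand) was at 392 and 389 CPM in the controls against 299 and 351 CPM with lactate. The lactate libraries were both lower but spread more widely than the controls, and the log2 fold change was -0.27 (SE 0.14, adjusted p = 0.328).

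Txn1 had a log2 fold change of -0.37 (SE 0.29, adjusted p = 0.505) and Prdx1 one of -0.33 (SE 0.19, adjusted p = 0.346). In Txn1 the replicates differed more than the groups, at 149 and 224 CPM in the controls against 108 and 181 CPM with lactate, with replicate 2 the higher of each group. Its log2 fold change was -0.05 without control replicate 2 and -0.79 without lactate replicate 2 (adjusted p = 0.0393). Prdx1 was at 545 and 668 CPM in the controls against 425 and 542 CPM with lactate, and lactate replicate 2 reached almost the level of control replicate 1. The log2 fold change of Prdx1 ranged from -0.52 without lactate replicate 2 to -0.18 without control replicate 2. Prdx6, which acts on lipid peroxides, had a log2 fold change of -0.20 (SE 0.13), with both lactate libraries below both controls, and it may share reads with a pseudogene of its name. The 4 other peroxiredoxins overlapped between the groups, with log2 fold changes of -0.05 for Prdx2, -0.02 for Prdx3, 0.20 for Prdx4 and 0.03 for Prdx5. The sign of Prdx2 and Prdx3 turned with library totals and with limma, that of Prdx3 also with upper-quartile factors, and that of Prdx5 without the filter on low counts. With single libraries left out, the log2 fold change ranged from -0.27 to 0.19 for Prdx2, from -0.12 to 0.06 for Prdx3 and from -0.38 to 0.44 for Prdx5, and for Prdx4 it was 0.0036 without lactate replicate 2. Prdx2 shares 11.5% and Prdx5 19.1% of its exon bases with genes on the opposite strand.

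**Figure D3:**
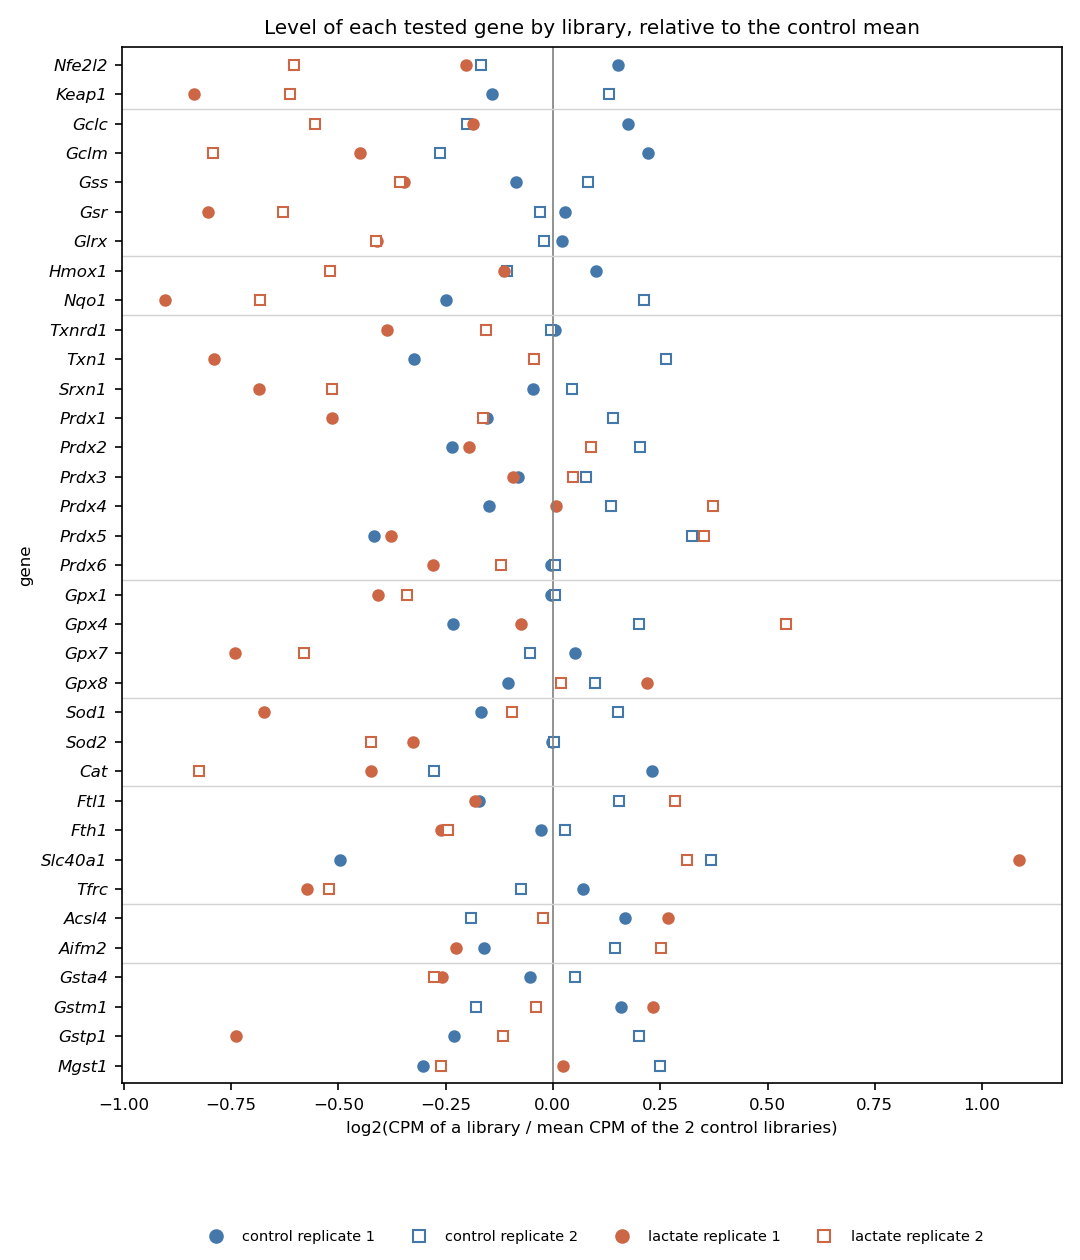
Level of each of the 35 tested genes in each library, as log2 of its CPM over the mean CPM of the 2 control libraries, with circles for replicate 1, squares for replicate 2, blue for control and orange for lactate, and grey lines between the gene groups. Both orange symbols lie left of both blue symbols in 19 genes, among them Gsr, Srxn1, Gpx1 and Tfrc, while in Txn1, Gpx4 and Prdx5 the replicates of a group are far apart.

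The genes of the glutathione peroxidase family were divided. Gpx1, the abundant cytosolic enzyme (chromosome 9, 108338903 to 108340343, plus strand), was at 376 and 378 CPM in the controls against 284 and 298 CPM with lactate. Its replicates differed by little and the groups by far more, with a log2 fold change of -0.37 (SE 0.13, adjusted p = 0.163). Gpx7, whose product works in the endoplasmic reticulum (chromosome 4, 108400390 to 108406961, minus strand), was at 16.02 and 14.9 CPM in the controls against 9.25 and 10.3 CPM with lactate. Again both lactate libraries were below both controls, with a log2 fold change of -0.66 (SE 0.17, adjusted p = 0.101).

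Gpx4, whose product reduces phospholipid hydroperoxides in membranes and is the main brake on ferroptosis (chromosome 10, 80047166 to 80056439, plus strand), was at 216 and 291 CPM in the controls against 241 and 370 CPM with lactate. Its groups overlapped, since lactate replicate 1 lay below control replicate 2, and replicate 2 was the higher of each group. The log2 fold change was 0.27 (SE 0.25, adjusted p = 0.571), and it was -0.08 without lactate replicate 2. A pseudogene named after Gpx4 is annotated, and reads may be shared with it. Gpx8, a further enzyme of the endoplasmic reticulum, was between 6.19 and 7.75 CPM in all libraries, with a log2 fold change of 0.12 (SE 0.20).

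The 3 genes for superoxide dismutases and catalase were all lower in the fit (49.0% of all genes), with a median log2 fold change of -0.37. Superoxide dismutases turn superoxide into hydrogen peroxide, and catalase breaks that down without glutathione. The mitochondrial enzyme gene Sod2 (chromosome 17, 13006846 to 13040063, plus strand) was at 189 and 190 CPM in the controls against 151 and 141 CPM with lactate. Its groups were well separated, with a log2 fold change of -0.37 (SE 0.13, adjusted p = 0.157).

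Cat (chromosome 2, 103453849 to 103485160, minus strand) was at 167 and 117 CPM in the controls against 106 and 80.2 CPM with lactate. Control replicate 2 was closer to lactate replicate 1 than to its own partner, and the log2 fold change of -0.61 (SE 0.22, adjusted p = 0.174) ranged from -0.85 to -0.35 when single libraries were left out. The cytosolic enzyme gene Sod1 was at 284 and 354 CPM in the controls against 200.1 and 299 CPM with lactate, with overlap and a log2 fold change of -0.36 (SE 0.23, adjusted p = 0.397). It ranged from -0.68 without lactate replicate 2 to -0.12 without lactate replicate 1.

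Of the 4 genes that handle iron, only Tfrc, a lower gene, had an unadjusted p-value under 0.05 (11.4% of all genes lower). Tfrc, which encodes the transferrin receptor that brings iron into the cell (chromosome 16, 32608920 to 32632794, plus strand), was at 336 and 304 CPM in the controls against 215 and 223 CPM with lactate. The lactate libraries were close together and both far below the controls, with a log2 fold change of -0.55 (SE 0.13, adjusted p = 0.0916), a level 31.6% lower. Leaving out single libraries gave values from -0.62 to -0.49.

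The ferritin chains that store iron gave opposite signs. Fth1, the heavy chain with the ferroxidase activity (chromosome 19, 9980598 to 9985098, plus strand), was at 362 and 376 CPM in the controls against 308 and 311 CPM with lactate. The groups did not overlap, and the log2 fold change was -0.25 (SE 0.13, adjusted p = 0.303). Ftl1, the light chain (chromosome 7, 45457944 to 45459884, minus strand), was at 1092 and 1368 CPM in the controls against 1085 and 1499 CPM with lactate. Both lactate libraries lay outside the control range, 1 on each side, and the log2 fold change was 0.07 (SE 0.21, adjusted p = 0.885). It was -0.10 without control replicate 1 and -0.18 without lactate replicate 2. The level of Ftl1 is uncertain, because 34.6% of its exon bases are shared with other genes, 2 genes named as its pseudogenes are annotated, and RSEM assigned it 173% of its raw count in the controls.

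Slc40a1 encodes ferroportin, the iron exporter (chromosome 1, 45908068 to 45926523, minus strand), and was close to the limit of detection, at 9 and 18 reads in the controls against 29 and 18 reads with lactate. Its log2 fold change of 0.73 was the highest of the 35 genes, but with an SE of 0.44 and an adjusted p of 0.374, and the groups overlapped in CPM. It ranged from 0.27 without lactate replicate 1 to 1.23 without control replicate 2.

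The remaining genes act on the lipids that ferroptosis attacks or on electrophiles. Acsl4, whose product loads polyunsaturated fatty acids into membranes (chromosome X, 142317993 to 142390535, minus strand), was at 42.0 and 32.8 CPM in the controls against 45.1 and 36.8 CPM with lactate, with a log2 fold change of 0.13 (SE 0.18, adjusted p = 0.729). Aifm2, also known as FSP1, encodes a reductase that keeps ubiquinol available as a radical trap (chromosome 10, 61715263 to 61739260, plus strand). Aifm2 was at 23.8 and 29.4 CPM in the controls against 22.7 and 31.6 CPM with lactate, with a log2 fold change of 0.03 (SE 0.21, adjusted p = 0.948). The groups of both genes overlapped. The log2 fold change of Acsl4 was -0.04 without control replicate 2 and -0.05 without lactate replicate 1, and that of Aifm2 was -0.13 without control replicate 1 and -0.23 without lactate replicate 2.

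Glutathione S-transferases attach glutathione to electrophiles. Gsta4, which acts on the aldehyde product hydroxynonenal of lipid peroxidation, had both lactate libraries below both controls and a log2 fold change of -0.27 (SE 0.13, adjusted p = 0.284). Gstp1 had one of -0.39 (SE 0.25, adjusted p = 0.386), with overlapping libraries, and ranged from -0.74 without lactate replicate 2 (adjusted p = 0.0452) to -0.14 without lactate replicate 1. Gstm1 (0.10) and the scarcely expressed microsomal Mgst1 (-0.12) overlapped as well. Gstm1 was at -0.06 without control replicate 2 and -0.07 without lactate replicate 1, and Mgst1 at 0.18 without control replicate 2 and 0.01 without lactate replicate 2.

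Compared per length, the 36 genes spanned a wide range of levels. Their TPM summed to 11713 and 13802 in the controls against 11229 and 13286 with lactate, or 1.17% and 1.38% against 1.12% and 1.33% of all TPM. In this sum the replicates of a group differed by more than the groups did. A large part of it was Ftl1, whose level is uncertain. Ftl1 was at 4437 and 5705 TPM in the controls against 4942 and 6355 TPM with lactate. The sum therefore says little about the other genes. Ftl1 was the most abundant, at a mean of 5071 ± 897 TPM in the controls against 5648 ± 999 TPM with lactate (SD, n = 2). Sod1 followed at 1286 ± 200.2 TPM in the control, then Fth1 at 999 ± 29.4, Gpx1 at 858 ± 56.4 and Prdx1 at 812 ± 25.9 TPM. In the controls the libraries of Sod1, Fth1 and Gpx1 did not overlap, while those of Gpx1 and Prdx1 did. The regulators were far lower, with Nfe2l2 at 104 ± 15.2 and Keap1 at 24.2 ± 2.56 TPM in the control. Slc40a1 and Osgin1 were below 1 TPM in both control libraries. The ratio of Ftl1 to Fth1 in TPM was 4.35 and 5.83 in the controls against 5.49 and 8.29 with lactate, and the groups overlapped.

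**Figure D4:**
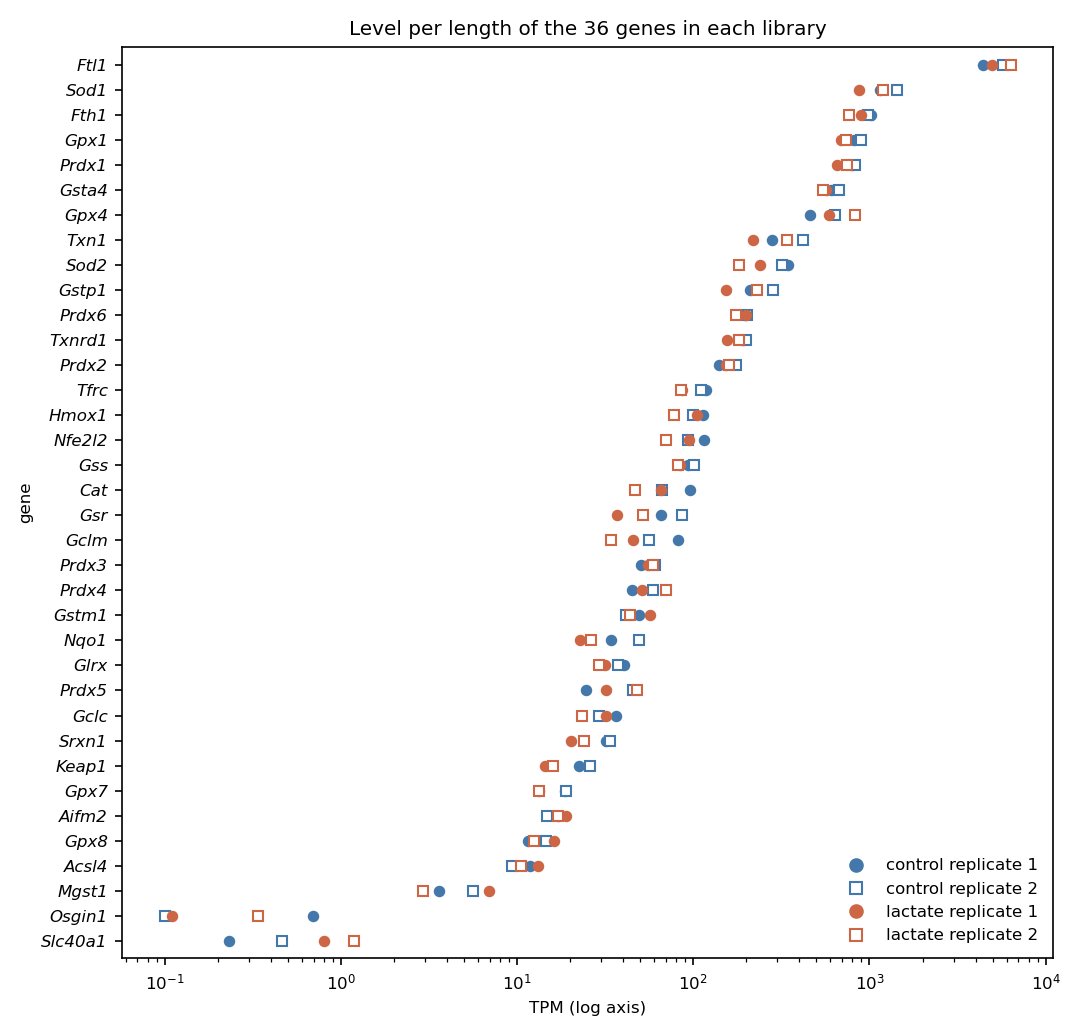
Level per length of all 36 genes, in TPM on a log axis, with a symbol for each library and genes ordered by their mean. Ftl1 stands highest, at 4437 to 6355 TPM, most genes lie between 10 and 1000 TPM, and Mgst1, Osgin1 and Slc40a1 lie below.

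A list of 135 other genes of the same pathways, of which 127 were tested, held more genes with higher than with lower levels. In that list 74 genes were higher (58.3%, against 51.0% of all genes) and 53 lower (41.7%, against 49.0%) in the lactate group. The median log2 fold change was 0.11, against 0.01 over all genes tested. By the same rule, 4 were called higher and 0 lower (0.552% and 0.348% of all genes). At an unadjusted p-value under 0.05, 26 were higher (20.5%, against 11.7% of all genes) and 11 lower (8.66%, against 11.4%). With scaling by library totals these became 33 and 6, and the shares of all genes also moved, to 14.6% higher and 8.53% lower. DESeq2 called 4 higher and 1 lower, namely Cbr3. The 4 genes called higher by edgeR were Chac1, Slc7a11, Gch1 and Txnip. With limma-trend on log2(FPKM + 1), no gene of the list or of the table reached an adjusted p-value under 0.05. At an unadjusted p-value under 0.05 in that fit, 25 of 130 genes of the list were higher and 8 lower. Of all 20019 genes in it, 1791 were higher and 1123 lower.

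The genes for cystine and glutathione turnover included the largest changes of the list. Chac1, which encodes a gamma-glutamylcyclotransferase that degrades glutathione, was at 3.18 and 3.85 CPM in the controls against 50.4 and 70.4 CPM with lactate. It rose 17.1-fold, with a log2 fold change of 4.10 (SE 0.24, adjusted p = 0.0165). Slc7a11, the light chain of the cystine/glutamate exchanger that supplies cysteine for glutathione, was at 0.636 and 0.580 CPM in the controls against 5.11 and 6.13 CPM with lactate. It rose 9.18-fold, with a log2 fold change of 3.20 (SE 0.28, adjusted p = 0.0312). This fold rests on 11 reads in each control library, close to the limit of detection. In TPM the mean was 0.11 in the controls and 1.04 with lactate, a low level in both groups. Its partner Slc3a2 was at 166 and 203 CPM in the controls against 294 and 375 CPM with lactate, without overlap, at a log2 fold change of 0.86 (SE 0.18, adjusted p = 0.0688). Of the 34 tested genes of this group, 9 were higher and 0 lower at an unadjusted p-value under 0.05, against 11.7% and 11.4% of all genes.

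The other called genes were Gch1 and Txnip. Gch1, whose product starts the synthesis of the antioxidant cofactor tetrahydrobiopterin, was at 2.02 and 2.64 CPM in the controls against 7.75 and 8.77 CPM with lactate and rose 3.53-fold (log2 fold change 1.82, SE 0.23, adjusted p = 0.0406). Without control replicate 1 and with the RSEM expected counts it no longer had an adjusted p-value under 0.05. Txnip, which encodes an inhibitor of thioredoxin, was at 267 and 302 CPM in the controls against 802 and 962 CPM with lactate and rose 3.10-fold (log2 fold change 1.63, SE 0.17, adjusted p = 0.0320). Txnip shares 19.4% of its exon bases with Gm15441 on the opposite strand.

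No other higher gene passed the adjusted test in edgeR. Among these others were the transferase genes Gstk1 (log2 fold change 1.34), Gstm3 (1.01) and Gstm6 (0.86) and the selenocysteine synthesis gene Sepsecs (0.87). The 3 transferase genes had few reads. Gstk1 had 6 and 13 reads in the controls against 24 and 27 with lactate. Gstm3 had 35 and 39 against 87 and 70 reads, and Gstm6 had 30 and 25 against 47 and 59 reads. Cbr3, which encodes a carbonyl reductase, had the largest fitted change among the lower genes. It was at 9.60 and 12.9 CPM in the controls against 1.94 and 3.45 CPM with lactate, at a log2 fold change of -2.06 (SE 0.32, adjusted p = 0.0516). It was called lower in each of the 4 fits that left out 1 library. The UDP-glucose dehydrogenase gene Ugdh (-0.87, adjusted p = 0.0520), the cytochrome P450 reductase gene Por (-0.71), the pentose phosphate enzyme gene Pgd (-0.70) and the iron reductase gene Steap3 (-0.57) came next. In the group of 19 further NRF2 target enzymes, 6 were lower and 1 higher at an unadjusted p-value under 0.05 (11.4% and 11.7% of all genes), with a median log2 fold change of 0.10.

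**Figure D5:**
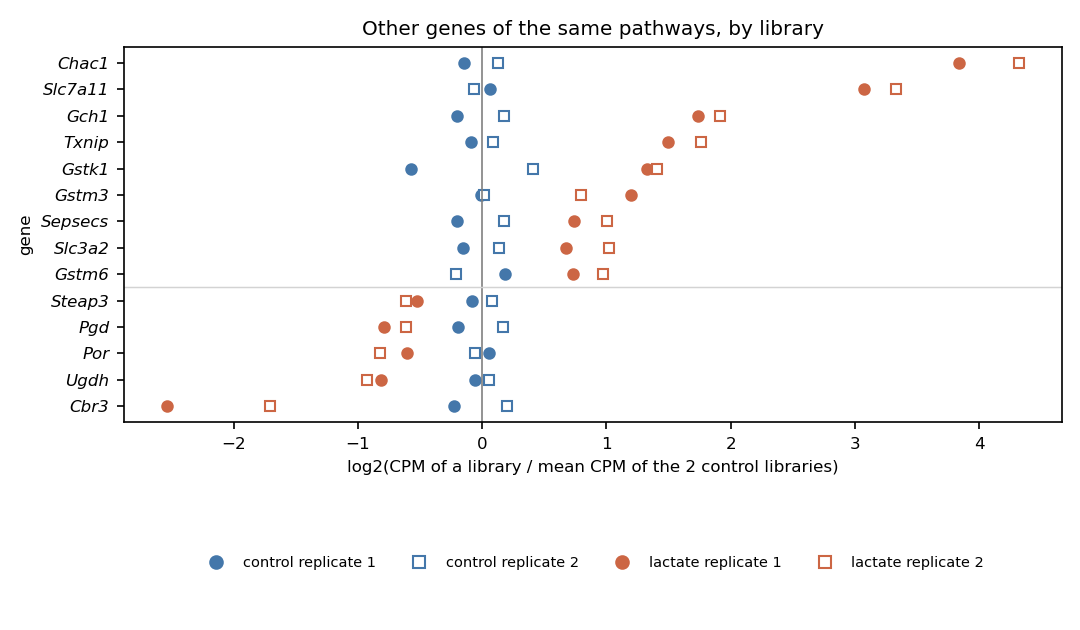
Level in each library of 14 other genes of the pathways, as log2 of CPM over the control mean, with the symbols as for the defence genes and a grey line between genes that were higher and lower. The lactate libraries of Chac1, Slc7a11, Gch1 and Txnip lie furthest to the right and Cbr3 furthest to the left. In none of the 14 genes do the groups overlap, which their choice by p-value and size of change favours. Over the 127 tested genes of the list, both lactate libraries lay above both controls in 39.4% and below in 23.6%. The shares of all genes were 27.0% and 25.9%.

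The promoter windows of Chac1 and Slc7a11, the pathway genes with the largest changes, are shown for comparison with those above. The letters TGATGNAAN, a form of the composite C/EBP-ATF element that ATF4 binds, were searched on both strands of the same windows. They were present in 3.95% of all windows and in 0 of the 40 windows of the defence genes, which at this window number is near the background. Of the other called genes, Gch1 and Txnip had 0 matches in 1 window each. Matches in the rest of the pathway list were not counted separately. A match describes letters only, and binding or a part in these changes was not tested. In Slc7a11 they occurred as TGATGCAAA on the gene's strand 66 bases before the start and on the opposite strand 48 bases before it, and in Chac1 as TGATGCAAC on the opposite strand 194 bases before the start. Capitals mark the matches, and both windows are written 5′ to 3′ along the strand of the gene.
Chac1, chr2:119350992-119351291, plus strand: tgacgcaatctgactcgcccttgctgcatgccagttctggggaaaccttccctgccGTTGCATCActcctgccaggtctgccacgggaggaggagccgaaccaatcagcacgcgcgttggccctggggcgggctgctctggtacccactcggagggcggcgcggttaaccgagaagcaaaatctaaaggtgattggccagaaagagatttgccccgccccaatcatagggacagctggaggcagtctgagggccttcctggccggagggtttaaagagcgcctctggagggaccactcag
Slc7a11, chr3:50443564-50443863, minus strand: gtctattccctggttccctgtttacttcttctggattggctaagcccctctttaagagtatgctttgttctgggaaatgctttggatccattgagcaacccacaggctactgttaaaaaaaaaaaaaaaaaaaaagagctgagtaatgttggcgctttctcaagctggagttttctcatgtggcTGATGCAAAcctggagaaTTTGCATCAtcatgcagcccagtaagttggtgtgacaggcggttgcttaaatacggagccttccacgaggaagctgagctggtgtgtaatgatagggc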

How the data were processed

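RNA-seq libraries of AB2.2 ESCs were analysed, 2 of control and 2 of lactate-treated cells, grouped by the treatment in their labels. The authors trimmed reads with cutadapt 1.16, mapped them to mm10 with STAR, and deposited raw counts on genes of GENCODE M23 and on 1153 transposable element families. For each library they also deposited the RSEM values in units of expected counts, TPM and FPKM. The gene counts came from STAR's own counting of reads in exons. The version of RSEM, the program that counted transposable elements and the use of strand are not given in the sources used here. All sample columns were used (0 left out).

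Raw gene counts were tested in R 4.3.3 with edgeR 4.0.16 (filterByExpr, TMM, quasi-likelihood test in its legacy form, Benjamini-Hochberg adjustment over 18661 genes). The SE is the absolute log2 fold change over the root of F. The biological coefficient of variation was 15.9%. CPM are after TMM scaling. Replicates were kept separate, since chi-square statistics over their genes, per degree of freedom, were 32.7 for control and 31.8 for lactate. The scripts were checked on simulated counts. Alternatives were DESeq2 1.42.0, other scaling factors, other filters, a replicate term, the RSEM expected counts rounded to whole numbers, limma 3.58.1 on log2 of FPKM plus 1 or 0.1 over genes with a mean FPKM above 0.1, and each library left out. Such fits with 1 library in a group assume that it varies like the other group.

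The genes, the list of other pathway genes and the markers were chosen with earlier results of these data known. Values in every library are given for genes with an unadjusted p-value under 0.05, because fewer than 8 had an adjusted one, and for 15 genes by role. From the pathway list the called genes and up to 5 further genes in each direction are named. Values of Txn1, Prdx1 and Sod1 were added after they were seen. Positions and exon overlaps are from GENCODE M21 on GRCm38, whose chromosomes are those of mm10, and promoter windows are from RefSeq.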

Additional observations from a re-analysis of the deposited data

How the results depend on the processing

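The median log2 fold change of the 35 defence genes stayed between -0.36 and -0.22 in every alternative and leave-one-out fit, and 0 of them were called at more than 2-fold in any. Their number lower at an adjusted p-value under 0.05 was 0 with edgeR, 3 with DESeq2 and 7 without a filter on low counts (2.89% of all genes there), and between 0 and 5 when single libraries were left out. Their number lower at an unadjusted p-value under 0.05 was 12 and between 7 and 11 with single libraries left out, and the number higher was 1 with limma at either added constant and between 0 and 1 with single libraries left out. The fits tested 18661 genes, 16965 for the adjusted p-values of DESeq2 and 32923 without a filter. For the other pathway genes, calls of higher genes numbered 4, and 0 with limma at either constant (103 and 0 of all genes). Calls of lower genes numbered 0, and 1 each with DESeq2's factors, DESeq2 and no filter. Of all genes, 65 were called lower, and 70, 168 and 325 in those fits. At an adjusted p-value under 0.05 alone, lower genes numbered 0, 1 with DESeq2's factors, 4 with DESeq2 and 5 without a filter. Of all genes, 79 were lower, and 86, 531 and 951 in those fits. Higher genes numbered 4, 7 with DESeq2, 9 without a filter and 0 with limma. Of all genes, 106 were higher, and 315, 696 and 0 in those fits. At an unadjusted p-value under 0.05, lower genes numbered 11, 6 with library totals, 18 without a filter and 6 to 17 with single libraries left out, and higher genes 26, 15 with DESeq2 and 14 to 19 with single libraries left out. The log2 fold change changed sign for Prdx2 with library totals (0.0195) and with limma (0.0027 and 0.0028), for Prdx3 with upper-quartile factors (0.0108), library totals (0.0449) and limma (0.0551 and 0.0564), for Mgst1 with limma (0.0134 and 0.0019), and without a filter for Prdx5 (-0.0113) and Aifm2 (-0.0111). With single libraries left out it ranged from -0.27 to 0.19 for Prdx2, -0.12 to 0.0550 for Prdx3, -0.38 to 0.44 for Prdx5, -0.0772 to 0.52 for Gpx4, -0.0080 to 0.22 for Gpx8, -0.18 to 0.26 for Ftl1, -0.0508 to 0.30 for Acsl4, -0.23 to 0.23 for Aifm2, -0.0663 to 0.27 for Gstm1 and -0.38 to 0.18 for Mgst1. The cause of these differences was not tested.

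Equal replicate numbers are not labelled as a shared batch, and 2 pairs cannot establish a pairing. The difference between replicates 1 and 2 correlated across genes between the groups (r = 0.56, over genes, which are not independent). With a replicate block, 23 of the 35 defence genes were lower and 1, Gpx4, higher at an adjusted p-value under 0.05 (22.5% and 22.0% of all genes). At an unadjusted one, 23 were lower and 2 higher. Of all 18661 genes, 4755 were lower and 4792 higher at that unadjusted threshold. With the block, 5 other pathway genes were called higher and 1 lower, 32 were lower and 47 higher at an adjusted p-value under 0.05, and 35 and 50 at an unadjusted one. The number of libraries limits the precision of abundant genes, and read depth that of scarce genes such as Osgin1, Slc40a1, Mgst1, Slc7a11 and Gstk1.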
